A study of Mus musculus with 12 samples.

Results

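Translation initiation factor genes were followed through 12 RNA libraries of mouse embryonic fibroblasts. The genes were taken by symbol, as every symbol made of Eif and a digit, leaving out the Eif2ak kinases that act on the pathway from outside. The rule found 54 of the 23284 gene symbols in the tables. It selects by symbol and not by value, but it was chosen with earlier results of these data known. Of the 54 genes, 52 had an RPKM (reads per kilobase and per 1 M reads of the library) of 1 or more in at least 2 libraries and were tested. Eif4e1b, an oocyte cap-binding protein, had at most 24 reads in a library, and the Argonaute gene Eif2c4 stood between 0.21 and 1.24 RPKM, so neither was tested.

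All libraries came from 2o 1B MEFs, secondary fibroblasts of 1 line, which as background knowledge carry reprogramming factors under the control of doxycycline (dox). The cells were transfected with siControl, with sic-Myc (here siMyc, against the gene Myc) or with siGcn5 (against the gene Kat2a), and were left without dox or given it for 2 days, which makes 6 groups of 2 libraries. Dox was added in the medium used for embryonic stem cells and the design names the arms day 0 and day 2, so dox, time and medium cannot be told apart. The labels mention siRNA pools and single siRNAs and do not say which was used here, and an effect of an siRNA on other transcripts was not tested. RNA was total RNA with ribosomal RNA removed, sequenced as stranded libraries. In such bulk samples, a change in the share of cells that express a gene and a change in RNA per cell cannot be told apart.

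As background, initiation factors bring the initiator tRNA, the small ribosomal subunit and the capped messenger RNA together and select the start codon. The eIF2 complex carries the initiator tRNA and is recharged by eIF2B, eIF3 organizes the small subunit, the eIF4 proteins bind the cap and unwind the messenger, and eIF5B joins the large subunit. The 4E-binding proteins hold back the cap-binding protein eIF4E. Myc is a transcription factor known for acting on genes of protein synthesis, and with its partner Max it binds the E-box CACGTG. Gcn5 acetylates histones as part of the SAGA coactivator complex. Some genes that fall under the naming rule act elsewhere, such as the Argonautes Eif2c1 to Eif2c4 of the small-RNA pathway and Eif4a3 of the exon junction complex.

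Gene reads ranged from 65.5 M to 188 M per library, and 51 of the 52 tested genes had at least 300 reads in every library. As a check of the labels, both targets were lower where their siRNA was used than in siControl at the same dox state. Myc was at log2 −1.85 in siMyc without dox and −2.91 with dox, and Kat2a at −3.12 in siGcn5 without dox and −2.69 with dox. In siMyc with dox, Myc stood at 16.9 and 26.2 RPKM, against 174 and 155 in siControl with dox. That was around its level in siControl without dox (21.7 and 17.6 RPKM), with siMyc replicate 1 below both of those libraries and replicate 2 above both. Each siRNA also moved the other target in at least 1 dox state. Myc was at −1.17 in siGcn5 without dox and −0.51 with dox (limma adjusted p = 0.046), and Kat2a at −0.34 in siMyc without dox (adjusted p = 0.13) and −1.49 with dox. Myc itself rose with dox in siControl (log2 3.01), as did the other reprogramming factor genes Pou5f1 (6.99), Sox2 (4.65) and Klf4 (3.02). With dox these factors differed between the arms, since mean Pou5f1 was 268 RPKM in siControl, 110 in siMyc and 169 in siGcn5, and mean Sox2 32.1, 16.9 and 19.5, all called lower than in siControl. Klf4 averaged 105 RPKM in siControl and was called higher in siMyc (144) and lower in siGcn5 (75.4). All 10 fibroblast markers had a mean of 1 RPKM or more in every group, but their summed RPKM was 11276 to 11342 in siControl without dox and 2860 to 3271 with dox, and 5649 to 5656 in siMyc and 4415 to 5162 in siGcn5 with dox. Summed epithelial markers went from 6.77 to 7.69 RPKM in siControl without dox to 458 to 523 with dox, and stood at 1131 to 1245 in siMyc and 467 to 543 in siGcn5 with dox. The sum in siMyc was mostly Krt14 (mean 954 RPKM against 334 in siControl with dox), and of 6 epithelial markers tested 3 were higher and 2 lower, with Cdh1 at a mean of 5.05 against 17.0. Without dox, the epithelial sums were 7.29 to 7.63 RPKM in siMyc and 36.9 to 42.7 in siGcn5, there mostly Krt18 (mean 34.1 against 6.23 in siControl). The fibroblast sums without dox were 10431 to 10505 RPKM in siMyc and 9149 to 9441 in siGcn5. The part of these shifts in the factors and markers in the results below was not tested. Blood, endothelial and skeletal muscle markers summed to at most 9.93, 3.60 and 14.6 RPKM in a library, and the 3 neural markers found, at 14.0 to 157 RPKM, had 1 gene at or above 1 RPKM.

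The promoter windows of 4 genes that fell with siMyc, and of Eif4a2, which did not fall, are printed first because the E-box marks where Myc is known to bind. They run from 250 bases before to 50 bases after a RefSeq transcript start on GRCm38.p6 and were matched by gene symbol, since the tables name genes on mm9 without coordinates. Capitals mark CACGTG, which reads the same on both strands. The windows are chr11:69921337-69921636 on the minus strand for Eif5a (1 of several starts), chr11:69672374-69672673 on the minus strand for Eif4a1, chr3:138527018-138527317 on the plus strand for Eif4e, chr16:20672477-20672776 on the plus strand for Eif4g1 and chr16:23107218-23107517 on the plus strand for Eif4a2. The windows of Eif5a and Eif4e were picked because they hold the motif, which 3 of the 6 Eif5a windows and 1 of the 2 Eif4e windows lack.
Eif5a: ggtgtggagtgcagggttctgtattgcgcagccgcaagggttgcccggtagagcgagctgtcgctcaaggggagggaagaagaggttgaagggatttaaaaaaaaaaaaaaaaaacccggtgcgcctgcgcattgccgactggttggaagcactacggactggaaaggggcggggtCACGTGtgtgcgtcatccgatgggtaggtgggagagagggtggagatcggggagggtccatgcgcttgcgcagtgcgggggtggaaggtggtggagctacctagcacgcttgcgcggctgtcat
Eif4a1: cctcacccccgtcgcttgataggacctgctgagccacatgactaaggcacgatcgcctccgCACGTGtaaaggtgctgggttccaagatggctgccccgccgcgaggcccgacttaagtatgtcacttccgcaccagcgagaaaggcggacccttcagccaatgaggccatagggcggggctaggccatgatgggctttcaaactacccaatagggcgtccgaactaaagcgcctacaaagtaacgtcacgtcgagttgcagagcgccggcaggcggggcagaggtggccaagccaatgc
Eif4e: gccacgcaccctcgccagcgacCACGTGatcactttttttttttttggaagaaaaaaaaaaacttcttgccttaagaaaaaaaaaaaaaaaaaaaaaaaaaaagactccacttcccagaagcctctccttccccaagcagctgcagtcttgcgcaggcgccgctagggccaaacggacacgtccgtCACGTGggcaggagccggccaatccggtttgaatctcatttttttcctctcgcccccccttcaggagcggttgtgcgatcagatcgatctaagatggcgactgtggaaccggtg
Eif4g1: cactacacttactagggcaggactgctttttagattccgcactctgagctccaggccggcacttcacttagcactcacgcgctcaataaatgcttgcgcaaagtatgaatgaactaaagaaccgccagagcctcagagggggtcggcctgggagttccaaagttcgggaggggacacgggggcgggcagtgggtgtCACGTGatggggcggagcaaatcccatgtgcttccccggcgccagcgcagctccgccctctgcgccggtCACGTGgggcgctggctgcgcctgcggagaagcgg
Eif4a2: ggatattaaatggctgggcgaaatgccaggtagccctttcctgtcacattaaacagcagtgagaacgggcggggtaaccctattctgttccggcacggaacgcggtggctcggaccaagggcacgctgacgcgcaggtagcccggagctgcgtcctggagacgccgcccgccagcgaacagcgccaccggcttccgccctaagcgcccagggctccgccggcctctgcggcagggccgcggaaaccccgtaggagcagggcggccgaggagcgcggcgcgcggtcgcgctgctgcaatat
The motif begins 74 bases before the start in Eif5a, 189 before it in Eif4a1, 228 and 64 before it in Eif4e, and 54 before and 15 after it in Eif4g1. The Eif4a2 window does not hold these letters. RefSeq windows were found for 42 of the 54 genes, 4 of them by an older symbol, and 12 of 55 windows (21.8%) held CACGTG, against 2349 of 32851 windows of all genes (7.15%). Some Eif5a windows overlap, and a site shared by such windows was counted more than once. By gene, 10 of the 42 held the motif, against 8.09% of all genes, which were not limited to those tested here. The 10 genes with the motif were Eif5a, Eif5a2, Eif4a1, Eif4e, Eif4g1, Eif4h, Eif3a, Eif3f, Eif3k and Eif1b. All 10 were lower in siMyc with dox, with a median log2 change of −0.80, and so were 24 of 31 tested genes whose window lacked it, with a median of −0.71. Among those 24 were Eif1ad (log2 −1.495) and Eif2b1 (−1.33), so the 4 printed windows with the motif do not stand for the genes that fell. The rise with dox in siControl had a median of 0.59 with the motif and 0.81 without. These are descriptions of windows that share members and paralogues, and a match does not show that Myc is bound there.

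Dox in siControl cells was associated with higher RNA of most initiation factors. In the fit over all genes, 42 of the 52 tested genes were higher with dox, where 46.1% of all 13175 genes tested were, and 1 was lower, where 27.9% were. The median log2 change on the log2(RPKM + 1) scale, which understates changes of low genes, was 0.67 for the initiation factors and 0.17 for all genes. Scaling by median ratios lowered the median of all genes to 0.03 and that of the initiation factors to 0.51, with 37 higher and 3 lower, and the share of rises among the calls of all genes went from 62.3% to 52.2%, or to 49.9% with quantile normalization. The summed RPKM of the 54 genes was 4912 and 5096 in the siControl libraries without dox and 7938 and 8348 with dox.

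**Figure D1:**
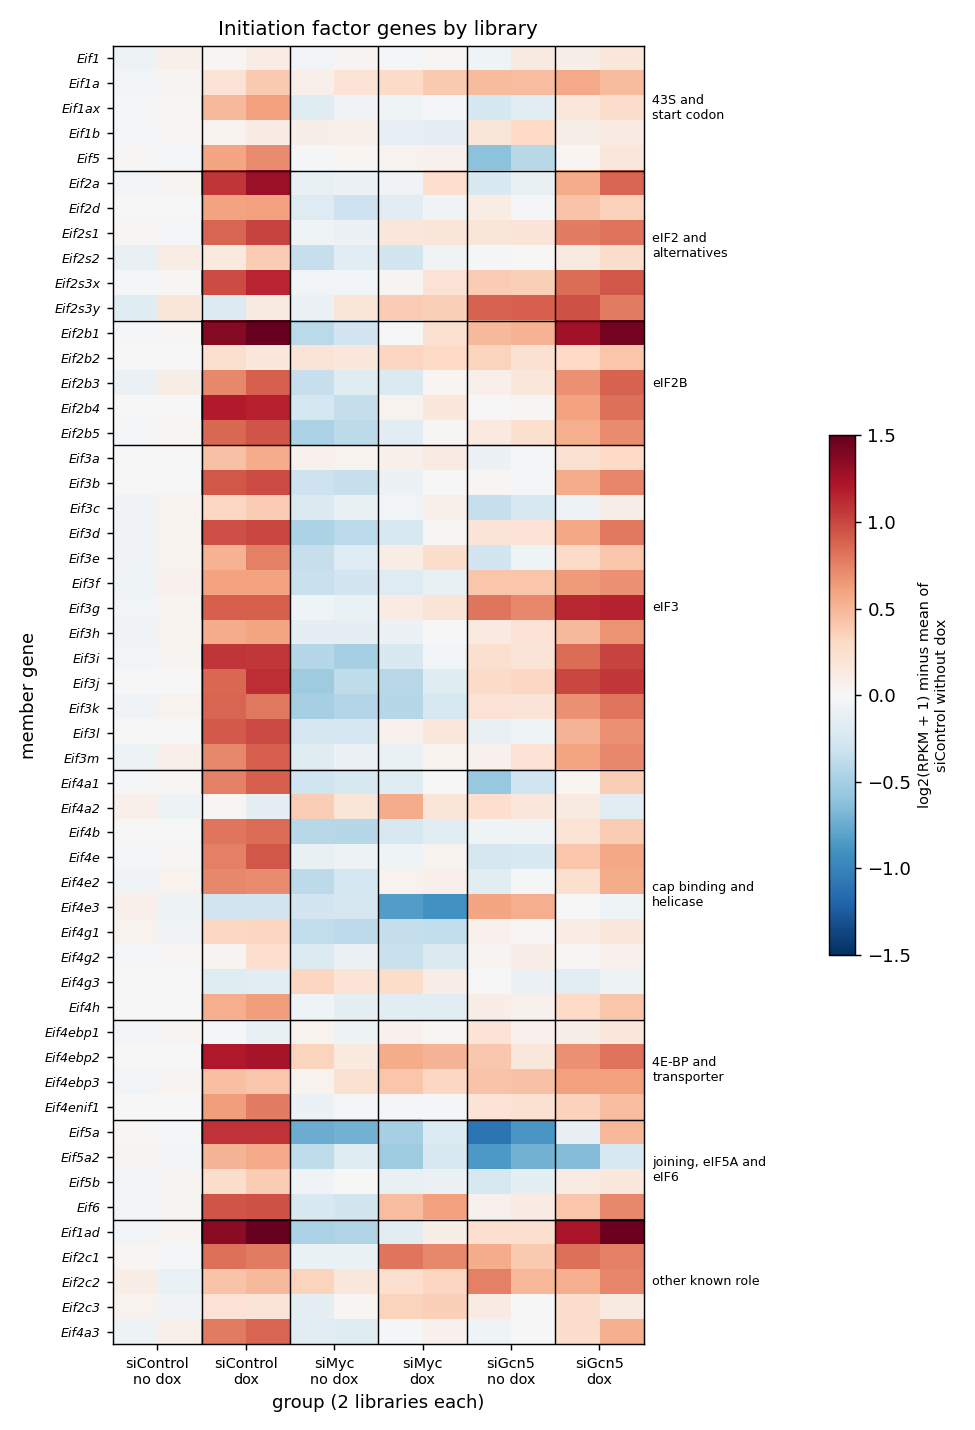
Initiation factor genes by library. Each row is 1 of the 52 tested genes, grouped by role, each column 1 library, and the colour is log2(RPKM + 1) minus the mean of siControl without dox, with the scale ending at −1.5 and 1.5. The siControl libraries with dox form the darkest red block, where 42 of 52 genes were called higher, and for most genes the siMyc libraries with dox stay near the level of siControl without dox.

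The largest rise by log2 change among the 52 genes was that of Eif1ad, an eIF1A-like protein, which went from 10.3 and 10.97 RPKM to 28.7 and 33.2 (log2 1.46, SE 0.11, limma adjusted p = 1.3e-06). Eif2b1, the alpha subunit of the exchange factor eIF2B, went from 19.3 and 19.8 RPKM to 52.3 and 58.2 (log2 1.45, SE 0.09, adjusted p = 5.8e-07). Eif4ebp2, a repressor of eIF4E, went from 19.6 and 19.4 RPKM to 46.3 and 47.5 (log2 1.22, SE 0.09, adjusted p = 1.4e-06). In each of these 3 genes the gap between the groups exceeded that between replicates, while lack of overlap was a condition for naming them. Eif2a, a factor that can deliver initiator tRNA apart from eIF2, rose from 26.2 and 27.7 RPKM to 57.5 and 67.6 (log2 1.18, adjusted p = 1.4e-05). Eif5a, which helps the ribosome through difficult peptide bonds and is one of the most abundant members, rose from 497 and 487 RPKM to 1040 and 1047 (log2 1.08, SE 0.17, adjusted p = 0.00021).

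By role, all 13 subunit genes of eIF3 rose, from log2 0.35 for Eif3c to 1.06 for Eif3i. Eif3i went from 160 and 169 RPKM to 346 and 344, and Eif3k from 191 and 204 to 363 and 341. The 5 eIF2B genes all rose as well, led by Eif2b1 and by Eif2b4 (log2 1.18), while the catalytic subunit Eif2b5 was at 0.90 and Eif2b2 at 0.20. The rise of Eif2b2 ended under both other scalings, without either siControl library without dox (adjusted p = 0.087 and 0.082) and without siControl replicate 1 with dox (0.13). All 4 genes of subunit joining and of the ribosome's later steps (Eif5a, Eif5a2, Eif5b and Eif6) rose. Eif6, which keeps the large subunit from joining too early, went from 59.1 and 62.7 RPKM to 118 and 119 (log2 0.95, adjusted p = 8.7e-06).

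The other groups were mixed. Of the 6 genes of eIF2 and its alternatives, 4 rose: Eif2s1, the alpha subunit phosphorylated under stress (log2 0.94), Eif2s3x, the X-linked gamma subunit (1.06), Eif2a and Eif2d. Eif2s2, the beta subunit, was at log2 0.26 (adjusted p = 0.058), and Eif2s3y, the Y-linked copy of the gamma subunit, at −0.03. Among 5 genes of start-codon selection 3 rose, Eif5 (log2 0.65), Eif1ax (0.55) and Eif1a (0.30), while the most abundant of them, Eif1, was at 259 and 288 RPKM without dox and 278 and 294 with it. The log2 change of Eif1 was 0.07 (adjusted p = 0.48) and turned to −0.10 with median-ratio scaling, −0.02 with quantile normalization and −0.01 without siControl replicate 1 without dox.

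Of the 10 tested cap-binding and helicase genes, 6 rose. Eif4a1, the main helicase of the group and the gene with the highest mean RPKM of the 54, went from 545 and 571 RPKM to 942 and 1040 (log2 0.83, SE 0.12, adjusted p = 0.00015). Eif4e, the cap-binding protein, went from 36.3 and 37.2 RPKM to 62.6 and 70.8 (log2 0.84, adjusted p = 6.3e-06). Its divergent relative Eif4e3 fell, from 3.35 and 2.90 RPKM to 2.34 and 2.38 (log2 −0.29, adjusted p = 0.0075), and this call was lost without siControl replicate 1 without dox (adjusted p = 0.082). The second helicase Eif4a2 (log2 −0.06), the scaffold Eif4g3 (−0.17, adjusted p = 0.064) and the scaffold-like Eif4g2 (0.15) did not pass the test, and Eif4g3 was called lower under both other scalings. Among the eIF4E repressors, Eif4ebp2 and Eif4ebp3 (log2 0.44) rose with the transporter Eif4enif1 (0.70), while Eif4ebp1 stood at 124 and 131 RPKM without dox and 125 and 118 with it (log2 −0.07, adjusted p = 0.44) and was called lower under both other scalings. Of the genes with another known role, Eif4a3 (log2 0.83) and the Argonaute Eif2c1 (0.80) rose with Eif1ad and Eif2c2.

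**Figure D2:**
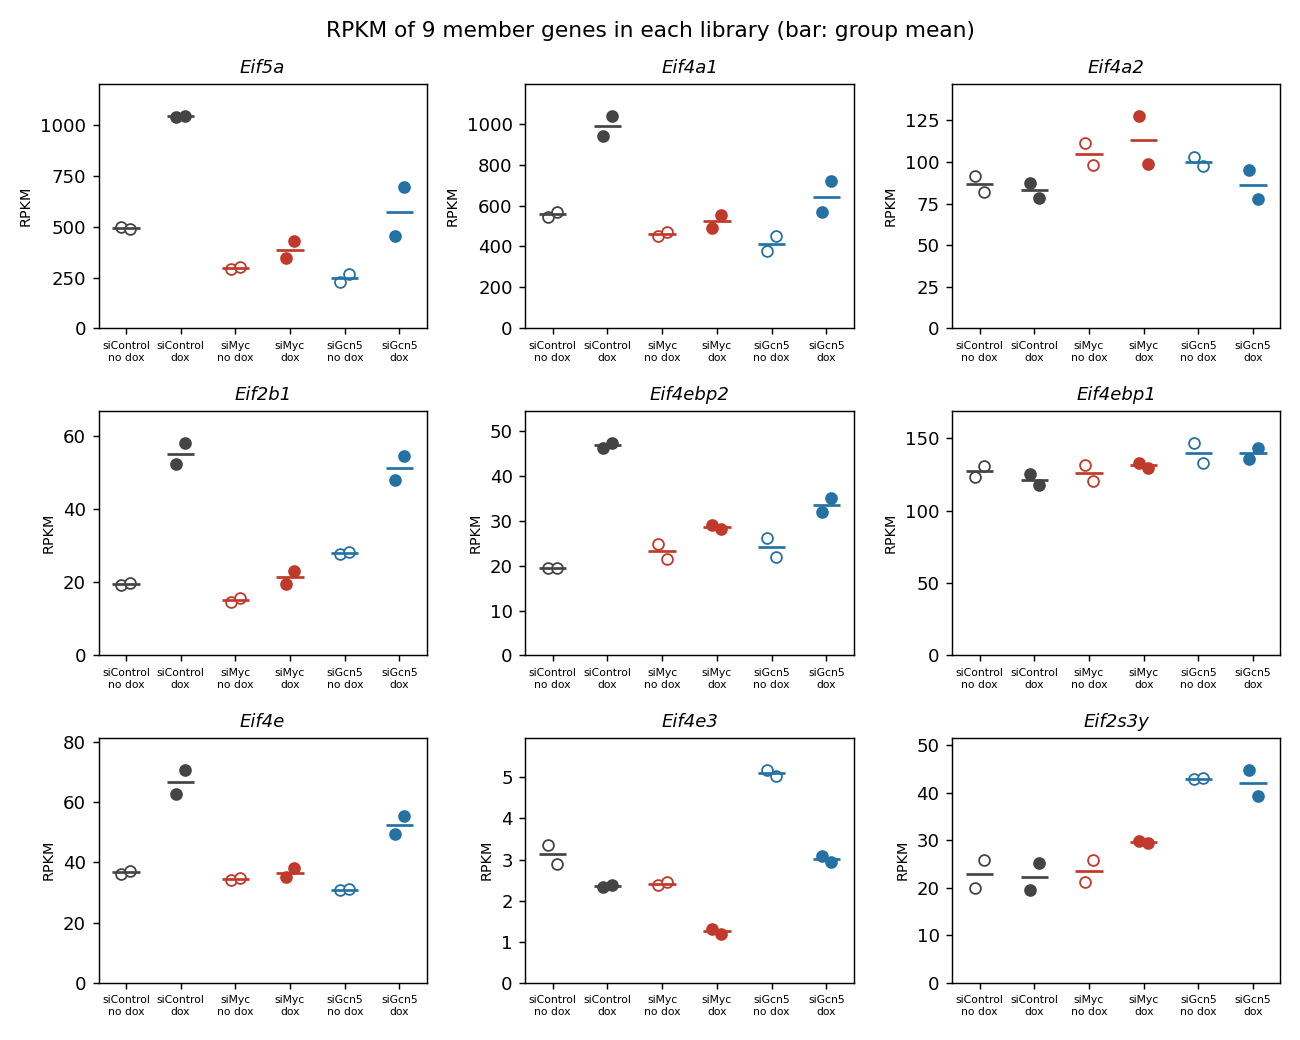
RPKM of 9 initiation factor genes in each library, with open circles without dox, filled circles with dox and a bar at the mean of 2 libraries. Eif5a, Eif4a1, Eif2b1, Eif4ebp2 and Eif4e are highest in siControl with dox, Eif4a2 and Eif4ebp1 are not, Eif4e3 is highest in siGcn5 without dox, and Eif2s3y is highest in the siGcn5 groups.

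Without dox, siMyc was associated with a smaller fall. Against siControl without dox, 17 of 52 genes were lower (10.7% of all genes) and 1 was higher (12.8% of all genes), with a median log2 change of −0.14 for initiation factors and 0.02 for all genes. The falls took in 7 of the 13 eIF3 genes, 3 of 5 eIF2B genes and 4 of 10 cap-binding and helicase genes. The count of lower genes rested on single libraries and was 7 or 5 without siControl replicate 1 or 2, and 4 or 11 without siMyc replicate 1 or 2. Eif5a was at 293 and 302 RPKM against 497 and 487 (log2 −0.72, SE 0.17, adjusted p = 0.013). Eif3k was at 139 and 145 RPKM against 191 and 204 (log2 −0.47, adjusted p = 0.0032), and Eif3i at 122 and 116 against 160 and 169 (log2 −0.47, adjusted p = 0.0039). Lack of overlap between the groups was a condition for naming these 3 genes. The calls of Eif3k and Eif3i held with any 1 library left out.

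Other genes named for this comparison depended on more than 1 library. Eif1ad (log2 −0.46), Eif3j (−0.46) and Eif4g3 (0.26, the gene called higher) lost their calls without either siControl replicate or siMyc replicate 1, as did Eif5a, with adjusted p-values from 0.055 to 0.21 over these genes. Eif3d (log2 −0.44) lost its call without siControl replicate 2 (adjusted p = 0.074) or siMyc replicate 1 (0.076). Eif4a1 was at log2 −0.27 (adjusted p = 0.15) and Eif4e at −0.09 (0.47), which did not pass the test.

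With dox, siMyc was associated with lower RNA of most initiation factors. Against siControl with dox, 41 of 52 genes were lower (37.1% of all genes) and 3 were higher (37.7% of all genes), with a median log2 change of −0.70 for initiation factors and 0.02 for all genes. The comparison shares the siControl libraries with dox with the comparison of dox in siControl, so a high value in them enters both with opposite sign. All 13 eIF3 genes fell, 5 of 6 genes of eIF2 and its alternatives, 4 of 5 eIF2B genes, 8 of 10 cap-binding and helicase genes and all 4 of joining, eIF5A and eIF6. Of the start-codon genes 3 of 5 fell, of the 4E-binding proteins and their transporter 2 of 4, and of the genes with another known role 2 of 5, shares nearer to the 37.1% of all genes. The summed RPKM of the 54 genes was 4647 and 5004 in siMyc with dox against 7938 and 8348 in siControl with dox.

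Eif1ad was the gene with the largest fall of the 52, with 9.37 and 11.4 RPKM in siMyc against 28.7 and 33.2 in siControl (log2 −1.495, SE 0.11, adjusted p = 1.1e-06). Eif5a stood at 347 and 427 RPKM against 1040 and 1047 (log2 −1.44, SE 0.17, adjusted p = 2.6e-05). Eif2b1 stood at 19.7 and 23.1 RPKM against 52.3 and 58.2 (log2 −1.33, SE 0.09, adjusted p = 8.7e-07). For Eif5a the siMyc libraries with dox lay below both siControl libraries without dox. Of eIF3, Eif3j (log2 −1.29), a loosely bound subunit, Eif3i (−1.20) and Eif3k (−1.16) fell most, and Eif3c least (−0.33). Eif4a1 was at 491 and 554 RPKM against 942 and 1040 (log2 −0.92, adjusted p = 6.4e-05), and its cofactor Eif4b, which stimulates the helicase, at log2 −1.02. Eif2a (log2 −1.08), Eif2b5 (−0.98), Eif2s3x (−0.93), Eif4e (−0.85), Eif4a3 (−0.80), Eif4enif1 (−0.71) and Eif1ax (−0.60) also fell. The fall of Eif2s2 (log2 −0.42, adjusted p = 0.0058) ended without siControl replicate 2 (adjusted p = 0.060) or siMyc replicate 1 (0.057).

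The 3 genes called higher in siMyc with dox were Eif4a2, Eif4g3 and Eif2s3y. Each is a relative of a gene that fell, which is no particular trait where 41 of 52 genes fell. Other relatives fell together, such as Eif5a (log2 −1.44) with Eif5a2 (−0.92) and Eif4e (−0.85) with Eif4e2 (−0.65). Eif4a2 stood at 128 and 98.7 RPKM against 87.4 and 78.6 in siControl (log2 0.43, SE 0.14, adjusted p = 0.014), beside the fall of Eif4a1. The Eif4a2 call ended without siControl replicate 2 (adjusted p = 0.090) or siMyc replicate 1 (0.14). Eif4g3, a scaffold that links the cap to the ribosome, stood at 37.5 and 33.1 RPKM against 27.0 and 27.4 (log2 0.36, adjusted p = 0.0015), beside Eif4g1 at 159 and 158 against 254 and 256 (log2 −0.68, adjusted p = 4.2e-06). Eif2s3y stood at 29.9 and 29.5 RPKM against 19.5 and 25.1 (log2 0.41, adjusted p = 0.025), beside Eif2s3x at 66.5 and 75.2 against 128 and 145. The Eif2s3y call ended without siControl replicate 1 (adjusted p = 0.21) or either siMyc library (0.086 and 0.069), and with no filter on low values (0.051). Without siMyc replicate 1, 1 gene was called higher. Among genes that did not pass the test were Eif1 (log2 −0.07, and 0.01 with median-ratio scaling), Eif4ebp1 (0.11), Eif2b2 (0.11) and Eif2c1 (−0.04), and Eif4ebp1 and Eif2b2 were called higher under both other scalings.

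**Figure D3:**
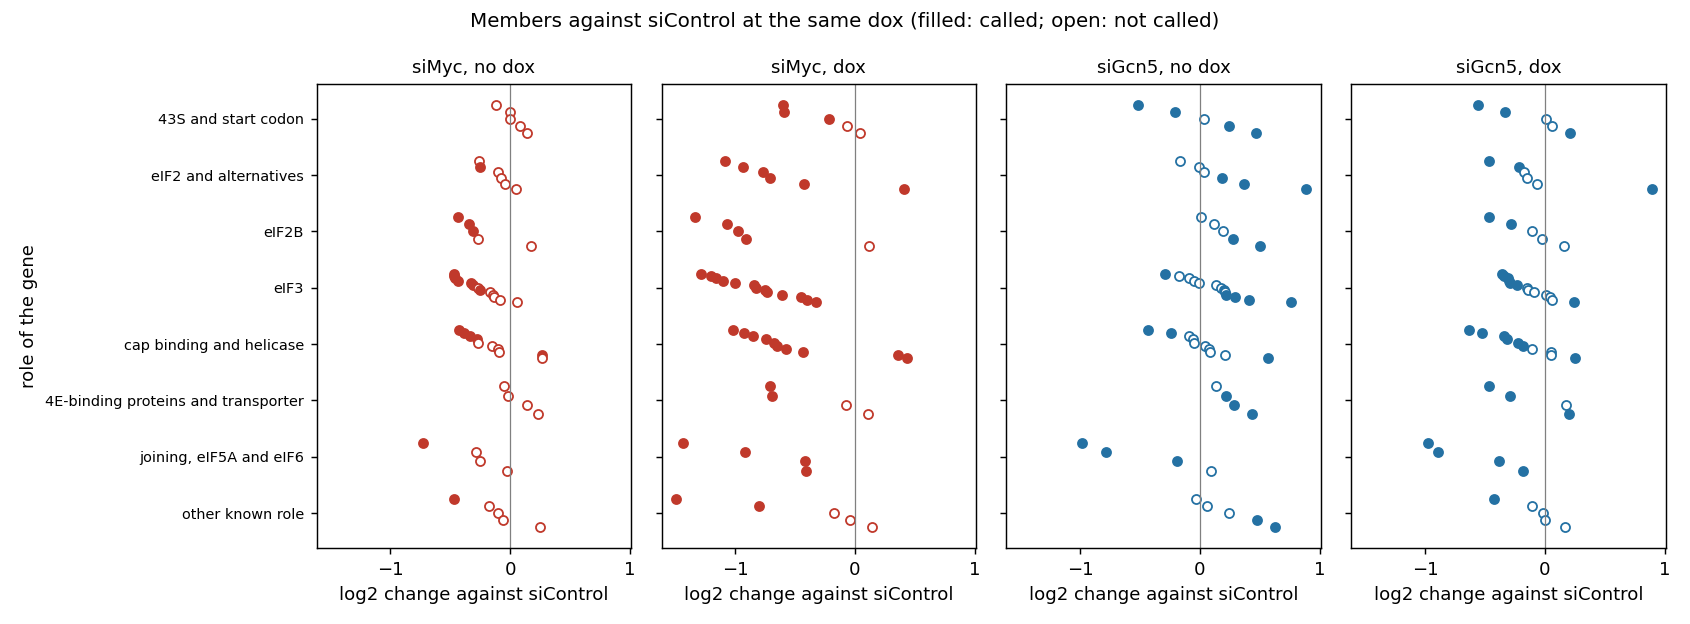
Log2 change on the log2(RPKM + 1) scale of the 52 tested genes against siControl at the same dox state, 1 point per gene, by role, filled where called and open where not. The siMyc panel with dox has 41 called genes left of 0 and 3 right of it, the siGcn5 panels have genes on both sides, and the lowest points of the siGcn5 panels are Eif5a and Eif5a2.

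Without dox, siGcn5 moved initiation factors in both directions. Against siControl without dox, 18 of 52 genes were higher, where 36.9% of all genes were, and 8 were lower, where 20.4% were, so these shares lay near those of all genes, and the median log2 change was 0.11 for both. With median-ratio scaling 9 were higher and 12 lower and the median turned to −0.02, the median of all genes went to 0.01 and the share of rises among all calls from 64.4% to 49.5%, so directions here are relative to the scaling. Without siControl replicate 1 or siGcn5 replicate 1, 11 genes were higher, and 5, 3 and 3 were lower without siControl replicate 1, siControl replicate 2 and siGcn5 replicate 1. Eif2s3y was at 42.9 and 43.04 RPKM against 19.9 and 25.9 (log2 0.89, SE 0.14, adjusted p = 0.00051), and Eif3g, a small RNA-binding subunit of eIF3, at 216 and 203 against 119 and 127 (log2 0.76, SE 0.06, adjusted p = 1.4e-05). Eif4e3 was at 5.18 and 5.03 RPKM against 3.35 and 2.90 (log2 0.57, adjusted p = 0.00025). Eif2c2 (log2 0.63), Eif2b1 (0.50) and Eif2c1 (0.47) were higher too.

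The genes that fell with siGcn5 were led by both eIF5A genes. Eif5a was at 230 and 268 RPKM against 497 and 487 (log2 −0.98, SE 0.17, adjusted p = 0.00078), and Eif5a2, its low-level copy, at 1.07 and 1.31 against 2.87 and 2.68 (log2 −0.78, adjusted p = 0.0013). Eif5, which triggers GTP hydrolysis on eIF2 at the start codon, was at 48.5 and 55.9 RPKM against 75.6 and 74.2 (log2 −0.52, adjusted p = 0.00047). Lying below siControl in both libraries was a condition for naming these 3 genes. Eif4a1 was at 376 and 452 RPKM against 545 and 571 (log2 −0.43, adjusted p = 0.013), which was not called with quantile normalization (adjusted p = 0.22), without siControl replicate 2 (0.069) or without siGcn5 replicate 1 (0.12). Eif3c (log2 −0.29) lost its call without siControl replicate 2 (adjusted p = 0.087) or siGcn5 replicate 1 (0.084), and Eif4e (log2 −0.24) without any 1 of the 4 libraries compared (0.070 to 0.12).

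With dox, siGcn5 was associated with lower RNA of 25 of 52 genes (24.9% of all genes) and higher RNA of 5 (31.4% of all genes), with a median log2 change of −0.16 for initiation factors and 0.05 for all genes. All 4 genes of joining, eIF5A and eIF6 were lower, 6 of 10 cap-binding and helicase genes and 6 of 13 eIF3 genes. The count of lower genes was 14 without siControl replicate 2 or without siGcn5 replicate 1, and 15 with the 4 libraries compared fitted alone. Eif5a2 was at 1.40 and 2.23 RPKM against 4.37 and 4.59 (log2 −0.98, adjusted p = 0.00043), and Eif5a at 452 and 696 against 1040 and 1047 (log2 −0.89, adjusted p = 0.0015). The siGcn5 libraries differed from each other by more than the siControl libraries did in Eif5a, and both lay below them, which the naming rule required. Eif4a1 (log2 −0.63), Eif5 (−0.56), Eif4b (−0.52), Eif2a (−0.47) and Eif4ebp2 (−0.47) were lower as well. The call of Eif2a ended without siControl replicate 2 (adjusted p = 0.086) or siGcn5 replicate 1 (0.093).

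Of the 5 genes higher in siGcn5 with dox, Eif2s3y was at 44.8 and 39.3 RPKM against 19.5 and 25.1 (log2 0.89, adjusted p = 0.00057), and it was called under every alternative run. The other 4, Eif4e3 (log2 0.26), Eif3g (0.25), Eif1a (0.21) and Eif4ebp1 (0.20), lost their calls with median-ratio scaling, where their adjusted p-values were 0.059, 0.054, 0.21 and 0.19 in that order, and with only the groups compared (0.096, 0.058, 0.12 and 0.12). With quantile normalization Eif4e3 (adjusted p = 0.12) and Eif1a (0.057) lost theirs, and with no filter on low values Eif1a (0.055) and Eif4ebp1 (0.054). Eif4e3 also lost it without either siControl library with dox or siGcn5 replicate 1 (0.071 to 0.10), Eif4ebp1 without any 1 of the 4 libraries compared (0.057 to 0.22), and Eif1a without replicate 1 of siControl or siGcn5 with dox (0.27 and 0.21). Eif1a and Eif4ebp1 were near the threshold and also lost it without libraries of other groups (0.057 to 0.060). The count of 5 was 3 without either siControl library without dox or siControl replicate 2 with dox, and 2 without replicate 1 of siControl or siGcn5 with dox. Eif2s3x and Eif2s3y, Eif1a and Eif1ax, and Eif5a and Eif4a1 with their pseudogenes are nearly identical in sequence, and how reads that match several copies were counted is not given in the sources used here, so their values are uncertain.

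The signed change with dox was lower under both siRNAs in most of these genes. Smaller here means lower with its sign, so a larger fall also counts as smaller. Eif4e3, for example, was at log2 −0.29 with dox in siControl and −0.60 in siMyc. The median log2 change with dox over the 52 genes was 0.67 in siControl, 0.17 in siMyc and 0.39 in siGcn5, and over all genes 0.17, 0.08 and 0.08. The change was smaller than in siControl for 46 genes in siMyc, where 51.9% of all genes had a smaller one, and for 46 in siGcn5, where 58.5% did. Both siRNA arms are set against the same 4 siControl libraries, so the counts are not independent. Pou5f1 also had a smaller change with dox in both arms (interaction −1.29 in siMyc, adjusted p = 0.0013, and −1.44 in siGcn5, 0.0045), as did Sox2 in siMyc (−0.84, 0.044), and the part of these factors in the smaller changes was not tested. In siGcn5 the interaction of Sox2 was −0.90 (adjusted p = 0.060). The summed RPKM of the 54 genes went from 4219 and 4313 to 4647 and 5004 with dox in siMyc, and from 4829 and 5019 to 6303 and 7136 in siGcn5.

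The interaction term tested this difference gene by gene. For siMyc, 36 of 52 genes had a smaller signed change with dox (29.3% of all genes in that direction), with a median of −0.52 against −0.03 for all genes. No gene had a larger signed change (24.8% of all genes did) by limma at the adjusted threshold, at an unadjusted p under 0.05 (0 genes) or by voom on recovered reads (0 genes). The smaller change was called in 11 of 13 eIF3 genes, 4 of 5 eIF2B genes, 4 of 6 genes of eIF2 and its alternatives and 6 of 10 cap-binding and helicase genes. The interaction was −1.03 for Eif1ad (SE 0.16, adjusted p = 0.00044), −0.99 for Eif2b1 (SE 0.13, adjusted p = 0.00025), −0.98 for Eif2a and −0.93 for Eif4ebp2. It was −0.89 for Eif2s3x and −0.83 for Eif3j. Eif2b1, for example, went from 14.5 and 15.8 RPKM to 19.7 and 23.1 in siMyc, and from 19.3 and 19.8 to 52.3 and 58.2 in siControl. Eif6 kept a rise in siMyc, from 52.04 and 50.3 RPKM to 84.2 and 94.1, and its interaction was −0.16 (adjusted p = 0.33).

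For siGcn5, 17 of 52 genes had a smaller signed change with dox (14.5% of all genes), with a median of −0.26 against −0.08 for all genes. None had a larger one (11.4% of all genes did) by limma, by voom or at an unadjusted p under 0.05 (0 genes each). The count of 17 was 8 with median-ratio scaling, 9 with quantile normalization and between 7 and 21 with 1 library left out, and the share of larger changes among the calls of all genes went from 44.0% to 57.0% with median-ratio scaling. The count fell to 7 and 9 without siControl replicate 1 or 2 without dox, to 8 without siControl replicate 2 with dox, to 9 and 11 without siGcn5 replicate 1 or 2 without dox and to 8 without siGcn5 replicate 1 with dox. Eif4ebp2 had the lowest interaction (−0.76, SE 0.13, adjusted p = 0.0052), going from 26.2 and 22.1 RPKM to 32.1 and 35.2 in siGcn5 and from 19.6 and 19.4 to 46.3 and 47.5 in siControl. Eif2b1 (−0.61), Eif2s3x (−0.55), Eif3g (−0.51), Eif4enif1 (−0.51) and Eif3d (−0.51) followed. The Eif3d call ended with median-ratio scaling (adjusted p = 0.057) and with any 1 of 5 libraries left out, which were siControl replicate 1 without dox and 2 with dox, both of siGcn5 without dox, and replicate 1 of siGcn5 with dox (0.051 to 0.078). Eif5a, lower under siGcn5 in both dox states, had an interaction of 0.09 (adjusted p = 0.81).

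**Figure D4:**
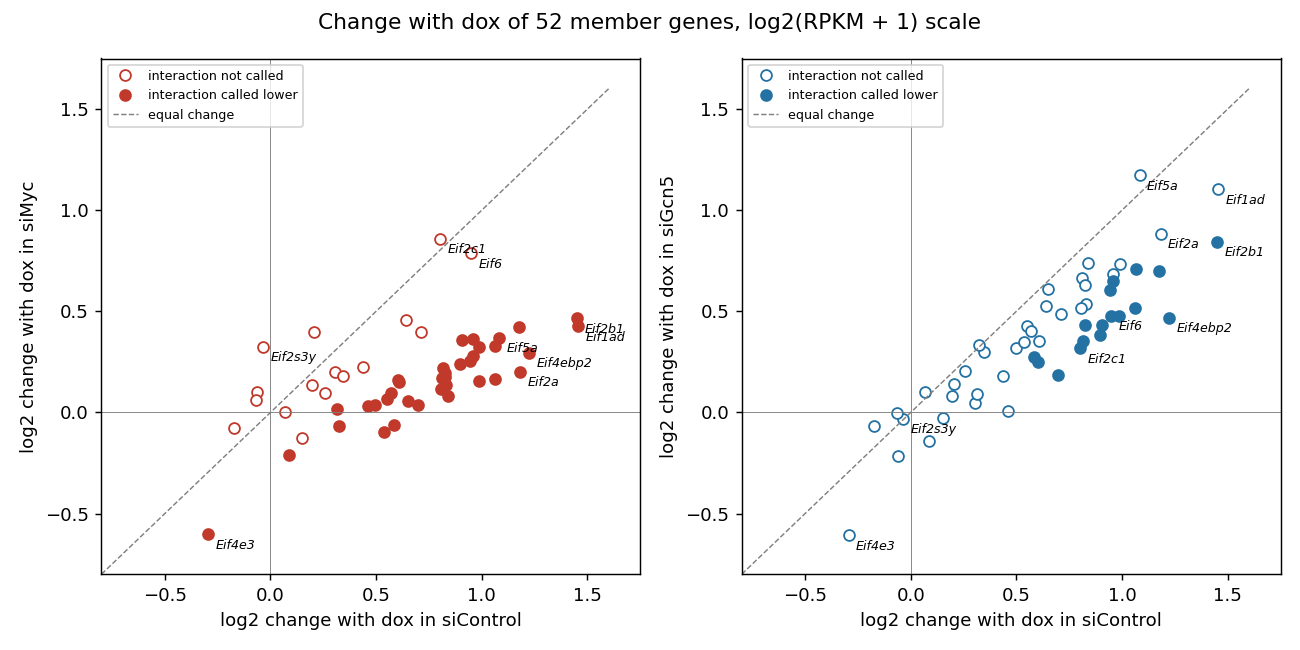
Log2 change with dox of the 52 tested genes in siControl (x axis) against siMyc (left) or siGcn5 (right), on the log2(RPKM + 1) scale, with filled points where the interaction was called lower and a dashed line of equal change. In siMyc 36 filled points lie below the line, and in siGcn5 17 do, while Eif2c1 and Eif6 lie near the line in the left panel and Eif5a in the right.

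Set against each other with dox, siMyc and siGcn5 differed in most genes. In siMyc 37 of 52 genes were lower than in siGcn5 (38.6% of all genes) and 2 were higher (27.3% of all genes), with a median difference of −0.45 for initiation factors and −0.09 for all genes. With median-ratio scaling 25 were lower and the median of all genes was 0.03, and the share of genes higher in siMyc among all calls went from 41.4% to 53.6%. The largest differences were those of Eif1ad (log2 −1.39), Eif3j (−1.33), Eif2b1 (−1.23), Eif3k (−1.07), Eif3i (−1.06) and Eif3g (−0.98). Eif3g was at 135 and 141 RPKM in siMyc and 271 and 276 in siGcn5 (adjusted p = 7.7e-07). Eif5a2, Eif5, Eif3c, Eif6 and Eif2c1 did not pass this test, with differences between −0.04 and 0.06. Eif4a2 (log2 0.38) and Eif4g3 (0.31) were higher in siMyc, calls that ended without siMyc replicate 1 (adjusted p = 0.25 and 0.053), and for Eif4a2 also without siGcn5 replicate 2 (0.20), with no filter on low values (0.056) or with the 4 libraries fitted alone (0.080).

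Paralogues of the same role were compared as ratios of RPKM within a library, with their mean ± SD over 2 libraries. Eif4a1 over Eif4a2 was 6.47 ± 0.73 in siControl without dox and 12.0 ± 1.7 with dox, and in siMyc 4.44 ± 0.55 and 4.73 ± 1.3. In siGcn5 this ratio was 4.15 ± 0.69 without dox and 7.63 ± 2.4 with it. Eif4g1 over Eif4g3 was 6.66 ± 0.32 and 9.37 ± 0.056 in siControl, 4.23 ± 0.17 and 4.51 ± 0.37 in siMyc and 7.12 ± 0.14 and 7.96 ± 0.12 in siGcn5. The 2 ratios were thus above their siControl values without dox in siControl with dox and below them in both siMyc groups. Eif4e over Eif4e3 went the same way with dox in all arms, from 11.8 ± 1.4 to 28.3 ± 2.2 in siControl, from 14.3 ± 0.070 to 29.4 ± 3.5 in siMyc and from 6.07 ± 0.20 to 17.5 ± 2.1 in siGcn5. The genes behind this differed between arms. Mean Eif4e went from 36.7 to 66.7 RPKM in siControl, 34.5 to 36.6 in siMyc and 31.0 to 52.4 in siGcn5. Mean Eif4e3 went from 3.13 to 2.36, 2.41 to 1.25 and 5.11 to 3.01 RPKM in that order. Eif2s3x over Eif2s3y went in siControl from 2.87 ± 0.48 to 6.16 ± 0.58 with dox, and was between 1.95 and 2.88 on average in the siMyc and siGcn5 groups. Eif5a over Eif5a2 rose with dox in all arms, from 177 ± 5.9 to 233 ± 7.0 in siControl. It went from 142 ± 18 to 204 ± 17 in siMyc and from 209 ± 6.5 to 317 ± 7.6 in siGcn5. Mean Eif1ax over Eif1a went from 2.47 to 2.92 in siControl, 2.06 to 1.87 in siMyc and 1.53 to 2.00 in siGcn5. The ratios are descriptions and were not tested.

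Genes around the initiation factors were taken from lists of names, which were chosen with earlier results of these data known. Among 14 accessory initiation genes, 13 rose with dox in siControl and 11 fell in siMyc with dox, where the shares of all genes were 46.1% and 37.1%. Bzw2, a mimic of eIF5, rose from a mean of 40.7 to 132 RPKM (log2 1.67), and was at 33.8 in siMyc with dox (log2 −1.95). The ribosome recycling factor Abce1 was at log2 −1.86 in that comparison and the nuclear cap-binding Ncbp1 at −1.68. The hypusine enzyme Dohh, which modifies eIF5A, rose with dox (log2 1.06) and fell with siMyc and dox (−0.83). Of 10 elongation and termination genes 9 rose with dox, led by Eef1e1 (log2 1.47), and 9 fell in siMyc with dox, led by Eef1b2 (−1.23). All 9 mitochondrial translation factors rose with dox, among them Tsfm, Gfm1 (log2 1.32 each) and Tufm (1.26), and 7 fell in siMyc with dox. The poly(A)-binding genes Pabpc4 (log2 1.33) and Pabpc1 (0.81) rose with dox and fell in siMyc with dox (−1.97 and −1.36), while Paip1, which links them to eIF4A, fell with dox (−0.30).

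The regulators of initiation moved less uniformly, with shares nearer to those of all genes, which were 46.1% higher with dox in siControl, and 37.7% higher and 37.1% lower in siMyc with dox. Of 9 genes of the eIF2 kinases and phosphatase, 5 rose with dox in siControl and Eif2ak2, the double-stranded RNA kinase, fell, from a mean of 16.7 to 8.6 RPKM (log2 −0.89). In siMyc with dox 3 of them were higher and 4 lower, with Eif2ak2 at log2 1.00 and Gcn1l1, a partner of the amino acid sensing kinase, at −0.77. In siGcn5 Ppp1r15a, the inducible subunit that removes the phosphate from eIF2, was at log2 1.49 without dox and 1.52 with it, from a mean of 12.1 RPKM in siControl to 35.9 without dox. A list of 15 genes took in the mTORC1 kinase complex, its regulators, its targets and kinases of eIF4E. Of these, 8 rose with dox, led by Deptor (log2 1.03), Larp1 (0.86) and Mknk2 (0.83), a kinase of eIF4E. In siMyc with dox 4 of the 15 were higher, such as Tsc1 (log2 0.68), and 4 lower, such as Deptor (−1.40) and Larp1 (−1.07). Deptor was low, at a mean of 0.71 RPKM in siControl without dox, 2.51 with dox and 0.33 in siMyc with dox.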

How the data were processed

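RNA of 12 libraries, 2 in each of 6 groups, was analysed from 1 table per library. Per the labels, libraries were made with a stranded total RNA kit after ribosomal RNA removal. The authors deposited 1 RPKM value for each of 23284 gene symbols, 2496 of which were at 0 in every library. The submitters' processing notes name mm9, the aligners Bowtie 0.12.8 and TopHat2 2.0.9, and affy, edgeR and HTSeq. The sources used here give neither which of them made the values nor the annotation, and say nothing of strand or of reads with several matches. RPKM is relative to each library's total, so RNA per cell is not measured.

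Genes with at least 1 RPKM in at least 2 libraries (13175) were tested on the log2(RPKM + 1) scale. A single limma fit (3.58.1, R 4.3.3, trended variance) held the 12 libraries and the 6 group means, with 6 residual and 4.17 prior degrees of freedom. Calls are two-sided with a Benjamini-Hochberg adjusted p under 0.05 over all genes tested, in 8 comparisons. The fit was run on simulated data with changes planted in siMyc with dox alone and noise drawn separately for each library. That run did not cover deviations shared between libraries or the other comparisons, and its outcome is not given here. No label says that replicates were separate cultures, so p-values may reflect technical spread alone. Replicates had Spearman correlations of 0.990 to 0.997 and differed by more than sampling noise (chi-square per degree of freedom 32.2 to 88.3).

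The low values stepped in whole reads, and for all 20788 genes with a value they came out whole within 0.05 reads, which gave the depths and an added alternative, voom on these reads, chosen after seeing the data. It called 43 initiation factor genes higher and 1 lower with dox in siControl, where 6131 and 3729 of all 13175 genes were called. In siMyc with dox it called 3 higher and 41 lower, where 4894 and 4884 of all genes were called. Other alternatives were a pseudocount of 0.1, no filter, a mean RPKM of at least 5, median-ratio scaling, quantile normalization, a replicate block, only the groups compared, and each library left out.

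Named genes were up to 6 called rises and 6 called falls per comparison without overlap of the compared groups and with a mean of at least 2 RPKM in the higher one, the most abundant gene and the largest changes of each role for dox in siControl and siMyc with dox, called genes against their role's majority, and up to 3 called genes of each list of other pathway genes. Others named were chosen after their values were seen. The genes and lists were chosen with earlier results of these data known. Promoter windows were read from a RefSeq table on GRCm38.p6.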

Additional observations from a re-analysis of the deposited data

Results flagged for a closer look

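The signed change with dox was lower in siMyc than in siControl in all 36 genes called by the interaction test (29.3% of all genes). Those named with it were Eif1ad (−1.03), Eif2b1 (−0.99), Eif2a (−0.98), Eif4ebp2 (−0.93), Eif2s3x (−0.89) and Eif3j (−0.83), as differences of log2 changes. Between siControl and siGcn5 the same test flagged 17 genes (14.5% of all genes), all with the lower signed change in siGcn5. Those named were Eif4ebp2 (−0.76), Eif2b1 (−0.61), Eif2s3x (−0.55), Eif3g (−0.51), Eif4enif1 (−0.51) and Eif3d (−0.51). Groups of 2 libraries were too small to look for single libraries that stand apart.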

How the results depend on the processing

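Counts of initiation factor genes called are given here where an alternative moved them by over 1.5 times. Lower with dox in siControl (1) became 0 with a mean RPKM of at least 5, 3 with median-ratio scaling or quantile normalization, 2 with the replicate block and 0 to 2 with 1 library left out. In siMyc without dox, the higher count (1) was 2 with the block and 0 to 1 with a library left out, and the lower count (17) was 4 to 18. In siMyc with dox, the higher count (3) was 5 with either scaling and 1 to 3 with a library left out. In siGcn5 without dox, the higher count (18) was 9 with median-ratio scaling, 11 with quantile normalization and 11 to 19 with a library left out, and the lower count (8) was 3 to 8. In siGcn5 with dox, the higher count (5) was 1 and 3 with the scalings, 1 with only the groups compared and 2 to 5 with a library left out, and the lower count (25) was 15 with only the groups compared and 14 to 25. The siGcn5 interaction (17 lower) was 8 and 9 with the scalings and 7 to 21 with a library left out. For siMyc against siGcn5, the higher count (2) was 1 with no filter or only the groups compared and 0 to 2 with a library left out. Eif1 reversed with dox at −0.10 (median-ratio), −0.021 (quantile) and −0.0083 to 0.15 (a library left out), and in siMyc with dox at 0.0084 (median-ratio). The cause of these moves was not tested. Same-numbered libraries of 2 groups deviated together with correlations of 0.093 to 0.489, 14 of 15 over 0.1. The labels tie the numbers to no shared culture or day, and pairing was to be taken only with every correlation over 0.1. The numbers were therefore not used, and this shared deviation stayed in the residual spread of the main fit. Its source was not tested. The block lifted the lower counts of siMyc without dox to 23 and of the siGcn5 interaction to 25, and called Eif2s2 higher with dox in siControl (log2 0.26, limma adjusted p = 0.0036). Over the named genes, leaving out a library left 974 values on their side of the threshold, ended 55 calls, made 2 and reversed 1. Libraries outside the groups compared were left out in turn as well, which leaves a log2 change as it was. Many of the values that stayed on their side could therefore hardly move. Replicates differed by more than counting noise, so the 2 libraries per group limit precision more than depth does, and Eif4e3 had as few as 215 reads in a library.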

Other observations

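Other Y-linked genes were looked at after the values of Eif2s3y were seen. Kdm5d, a histone demethylase gene, was at 4.51 and 4.09 RPKM in siGcn5 without dox against 2.31 and 2.23 in siControl (log2 0.70, SE 0.09, limma adjusted p = 0.00010), and at log2 0.57 with dox (adjusted p = 0.00040). Ddx3y, a helicase gene with an X-linked relative, was at 18.1 and 19.0 RPKM against 11.3 and 13.6 (log2 0.55, adjusted p = 0.0032), and at log2 0.44 with dox (adjusted p = 0.011). Uty, another demethylase-family gene, was at 3.59 and 3.40 RPKM against 2.79 and 3.43 (log2 0.13, adjusted p = 0.29), and at log2 −0.13 with dox (adjusted p = 0.31). In siMyc with dox, Ddx3y (log2 0.45) and Kdm5d (0.30) were called higher and Uty (−0.01) was not. Beside these, Eif2s3y was at log2 0.89 in both siGcn5 comparisons.

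Eif2c4, the Argonaute gene below the filter, was listed for the 4 siGcn5 libraries at 1.24 and 0.78 RPKM (no dox) and at 0.77 and 0.61 (dox added). In the other 4 groups it lay between 0.21 and 0.49 RPKM. It was not tested.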
